A study of Mus musculus with 9 samples.

Results

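Imprinted genes are expressed mainly from the copy inherited from 1 parent, and 35 of them, in known clusters, were followed here in mouse embryonic stem cells whose Apela RNA had been lowered. The list was drawn up with earlier results of these data known, so its shares set beside all genes below are descriptions. Each gene was represented by its brightest probe set (a group of array probes combined into 1 value) with a single gene symbol. Of the 35 genes, 29 had such a probe set, out of 19938 genes tested in all. Of these 29, 17 are known as paternally expressed and 12 as maternally expressed, an assignment taken from general knowledge of mouse imprinting, part of it known from placenta or single tissues. H19, Kcnq1ot1, Zrsr1, Snrpn, Mirg and Gnas had no probe set with a single symbol and were not analysed here. The arrays measured the sum of both copies of a gene, so no value below says which parental copy a transcript came from.

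The cells were of the mouse embryonic stem cell line R1E. All groups were kept in medium holding 15% fetal bovine serum and leukemia inhibitory factor (1000 units/ml), a cytokine that holds such cells undifferentiated, and received no drug. Each group carried 1 lentiviral hairpin: the control shLuc, aimed at luciferase, a gene that mouse cells lack, or shApela #1 or shApela #2, aimed at Apela, the gene of a short secreted peptide. Total RNA of each of the 3 groups was measured on 3 Affymetrix arrays, 9 in all. No source used here gives the hairpin sequences, how long after transduction RNA was taken, or whether repeats were separate cultures. The p-values therefore measure only the spread between these arrays, which may be technical.

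An imprinted cluster is governed by a control region that carries DNA methylation on 1 parental copy, set in the egg or sperm. ZFP57 and TRIM28 bind the methylated copy in early embryos and embryonic stem cells and keep DNMT1 and UHRF1, which copy methylation after replication, acting there. Many paternally expressed genes, such as Igf2, Peg3 and Mest, have been tied to growth of the embryo or to maternal behaviour, and many maternally expressed ones, such as Igf2r, Grb10, Cdkn1c and Phlda2, to limits on growth. Imprints are known to be lost or altered at times in cultured embryonic stem cells.

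Apela, the targeted gene, fell in all 6 knockdown arrays: it fell by 1.60 on the log2 scale with shApela #1 and fell by 1.58 with shApela #2 (limma, adjusted p = 0.000197 and 0.000219). All 18 pluripotency genes on the list used, among them Pou5f1, Nanog and Sox2 at 12.07, 12.28 and 12.09 in shLuc, lay above the median probe set of the table, 7.06. Array medians lay between 7.03 and 7.12, and the highest belonged to the third shApela #2 array, whose interquartile range, 3.29, was the smallest of the 9. Levels below are log2 values per probe set, and changes are differences of log2 group means with limma's standard error (SE). A gene was called at an adjusted p under 0.05 (Benjamini-Hochberg over all 19938 genes). In bulk RNA, fewer cells of a type and less RNA per cell cannot be told apart.

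The hairpins parted at 3 imprinted genes, all paternally expressed. Against shApela #1, shApela #2 had more Peg3 and less Nnat and Ndn, and these 3 of 29 (10.3%) stood beside 189 of all 19938 genes called in that comparison (0.948%; 0.356% higher and 0.592% lower). At an unadjusted p under 0.05 there were 8 of the 29 (27.6%, against 12.9% of all genes). Against shLuc, 0 of the 29 were called by limma with shApela #1, where 67 of all genes were (0.336%; 0.14% higher and 0.196% lower), and 9 of the 29 had an unadjusted p under 0.05 (7.69% of all genes). With shApela #2 against shLuc 0 of the 29 were called (0.015% of all genes), and Nnat was the 1 member with an unadjusted p under 0.05 (5.77% of all genes). The mean of both hairpins against shLuc gave 0 called members (0.015% of all genes) and 3 at an unadjusted p under 0.05 (4.58% of all genes), Peg3, Ndn and Igf2.

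Groups of arrays that did not overlap were counted as well. Between shApela #1 and shLuc they were kept apart for 10 of the 29 members (34.5%, against 13.7% of all genes). Between shApela #2 and shLuc this held for 4 (13.8%, against 10.3%), and between the hairpins for 12 (41.4%, against 17.6%). No member kept both hairpins' 6 arrays apart from the shLuc arrays (0 of 29, against 2.17% of all genes). Of the 29 members 22 lay above the median probe set, and the shares of all genes are not matched for brightness.

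**Figure D1:**
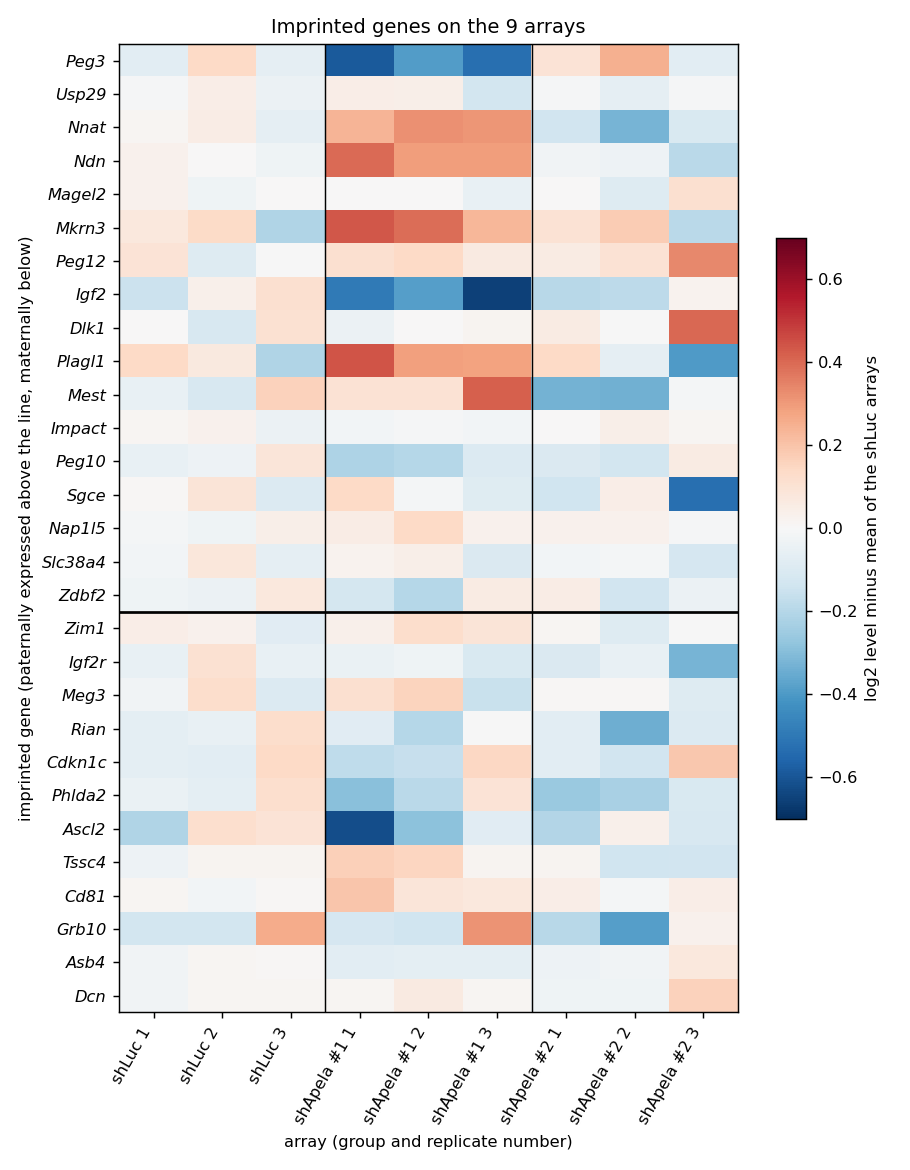
Each row is an imprinted gene and each column an array; the colour is the log2 level minus the mean of the 3 shLuc arrays, and the line parts paternally from maternally expressed genes. The 3 shApela #1 arrays are low for Peg3 and Igf2 and high for Nnat, Ndn, Mkrn3 and Plagl1, and the difference between the hairpins was called for Peg3, Nnat and Ndn of these.

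Peg3 encodes a large zinc finger protein and is the paternally expressed centre of a domain that also holds Usp29 and the maternally expressed Zim1. Its log2 level was 9.84, 10.05 and 9.85 on the shLuc arrays, 9.32, 9.52 and 9.39 with shApela #1, and 10.01, 10.16 and 9.84 with shApela #2. All 3 shApela #1 arrays lay below the other 6. The change with shApela #1 was -0.50 (SE 0.09, adjusted p = 0.0831), which left 70.6% of the control signal, and that with shApela #2 was 0.09 (SE 0.09, adjusted p = 0.747). Between the hairpins Peg3 differed by 0.59 (95% interval from 0.38 to 0.81, adjusted p = 0.0283), or 1.51-fold.

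Deviations of same-numbered arrays from their group means correlated by 0.40 to 0.68 between shLuc and shApela #1. Between the hairpins they correlated only weakly, by 0.18 to 0.21. With the replicate number as a block over all 9 arrays, Peg3 passed against shLuc with shApela #1 as well (adjusted p = 0.0154). So did Ndn (0.0271) and Mkrn3 (0.0295). Thus 3 of 29 members were called with shApela #1, where the share of all genes was 0.953%. Between the hairpins the block gave 6 members (20.7%, against 3.28% of all genes): Peg3, Nnat, Ndn, Mkrn3, Plagl1 and Mest. Between shLuc and shApela #2 the correlations were uneven, at -0.01, 0.67 and 0.47. The block gave 0 members there (0.0401% of all genes).

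The call of Peg3 between the hairpins ended without any 1 of the shApela #1 arrays (adjusted p = 0.136, 0.0933 and 0.0936 for arrays 1, 2 and 3), shApela #2 array 1 or 2 (0.0807 and 0.0865), shLuc array 1 or 3 (0.0576 and 0.0526), or with only the compared arrays in the fit (0.101), while the difference stayed between 0.51 and 0.68 over all alternatives.

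Usp29, a ubiquitin protease gene, starts beside Peg3 and runs the other way; of the 300 bases around their starts, 263 are shared. Its level was 5.92 ± 0.04 (SD, n = 3) in shLuc, 5.91 ± 0.10 with shApela #1 and 5.89 ± 0.03 with shApela #2, below the median probe set, and its change with shApela #1 had a 95% interval from -0.14 to 0.11. Zim1, a zinc finger gene read from the maternal copy, was also dim, at 6.08, 6.07 and 5.96 in shLuc, 6.07, 6.16 and 6.13 with shApela #1, and 6.05, 5.95 and 6.03 with shApela #2. All 3 of its shApela #2 arrays lay below the shApela #1 arrays, a difference of -0.11 (SE 0.05, adjusted p = 0.404).

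The stretches upstream of the start sites of the 3 called genes are shown so that the promoter that Peg3 and Usp29 share, and the promoters of Nnat and Ndn, which differed between the hairpins in the opposite direction, can be compared. They come from RefSeq (GRCm38.p6), cover the 250 bases before each start, and lie at chr7:6730420-6730669 (minus strand) for Peg3, chr2:157559828-157560077 (plus strand) for Nnat and chr7:62348027-62348276 (plus strand) for Ndn. Capitals mark TGACGTCA, the palindrome known as the cAMP response element, in Peg3, and GCATGCGC, the core of the element bound by NRF1, in Nnat and Ndn. In Nnat 2 matches overlap, 1 on each strand. Both motifs were picked after the sequences were seen.
Peg3: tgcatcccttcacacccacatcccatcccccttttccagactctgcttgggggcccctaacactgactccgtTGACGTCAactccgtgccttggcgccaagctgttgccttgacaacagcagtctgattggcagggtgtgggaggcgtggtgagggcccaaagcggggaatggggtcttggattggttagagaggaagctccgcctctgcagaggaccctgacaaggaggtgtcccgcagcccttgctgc
Nnat: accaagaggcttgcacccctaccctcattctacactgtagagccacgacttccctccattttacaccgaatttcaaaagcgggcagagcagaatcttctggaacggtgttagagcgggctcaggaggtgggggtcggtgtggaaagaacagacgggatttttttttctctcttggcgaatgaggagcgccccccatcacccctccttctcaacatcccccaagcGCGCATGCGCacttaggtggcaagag
Ndn: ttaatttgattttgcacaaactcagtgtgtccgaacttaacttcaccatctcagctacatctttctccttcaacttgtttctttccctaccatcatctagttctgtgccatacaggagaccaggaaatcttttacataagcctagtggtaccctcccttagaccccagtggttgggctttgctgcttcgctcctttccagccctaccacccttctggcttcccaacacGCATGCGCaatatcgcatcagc

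Over the 300 bases from 250 before to 50 after the start, on both strands, GCATGCGC was present in 2.71% of 32851 RefSeq promoters, and among the 35 promoters of the 24 measured members with an entry it was present in those of Ndn and Nnat. TGACGTCA was present in 1.79% of all promoters, and in promoters of Meg3, Zdbf2, Peg3 and Usp29, the last 2 being the same site. TGCCGC, the hexamer bound by ZFP57 when methylated, was present in 10 of the 35 member promoters (28.6%) against 11.6% of all, in those of Grb10, Igf2, Meg3, Mest, Nap1l5, Nnat, Plagl1, Zdbf2 and Zim1. In the same windows CCATNTT, a core bound by YY1, was present in 17.1% against 16.1%, and CCCTC, found within CTCF sites, in 77.1% against 66%. The member promoters were also richer in CG pairs, with a median of 14 against 7 and a ratio of observed to expected CG pairs of 0.605 against 0.384 (TGCCGC itself holds a CG pair). Matches are descriptions of these windows, several promoters belong to 1 gene, and no test was made.

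Ndn, the gene of necdin, a MAGE family protein of neurons and of cells that stop dividing, lies in the Snrpn domain, the mouse counterpart of the Prader-Willi region, all of whose measured members are paternally expressed. It measured 8.84, 8.81 and 8.78 in shLuc, 9.21, 9.10 and 9.10 with shApela #1, and 8.79, 8.77 and 8.62 with shApela #2. The shApela #1 arrays lay above all others, while those of shApela #2 overlapped with shLuc. Against shLuc the change was 0.33 with shApela #1 (SE 0.05, adjusted p = 0.0558) and -0.08 with shApela #2 (SE 0.05, adjusted p = 0.68). Between the hairpins Ndn was lower with shApela #2 by -0.41 (95% interval from -0.53 to -0.29, adjusted p = 0.0158). That call ended without the first or second shApela #1 array (adjusted p = 0.0709 and 0.0831) and with only the compared arrays in the fit (0.0951).

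Mkrn3, a makorin with a RING finger in the same domain, was likewise highest on the shApela #1 arrays but varied more. Its levels were 6.39, 6.45 and 6.11 in shLuc, 6.75, 6.71 and 6.54 with shApela #1, and 6.42, 6.49 and 6.13 with shApela #2. Mkrn3 was thus dim, below the median probe set on every array. The shApela #1 arrays were again above the other 6, by 0.35 against shLuc (SE 0.12, adjusted p = 0.411), and shApela #2 differed from shApela #1 by -0.32 (SE 0.12, adjusted p = 0.297, and 0.0202 with the replicate block). Magel2, another MAGE family gene, measured 6.92 ± 0.03, 6.90 ± 0.03 and 6.92 ± 0.10 in shLuc, shApela #1 and shApela #2. Peg12, a relative of the Wnt pathway gene Frat1, measured 7.38 ± 0.09, 7.49 ± 0.04 and 7.54 ± 0.15. Groups overlapped for Magel2 and Peg12 in each of the 3 pairings of groups, and 0 of their tests passed.

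Nnat encodes neuronatin, a small membrane protein of developing brain and islets. The gene lies in an intron of Blcap and is paternally expressed. It measured 8.28, 8.32 and 8.21 in shLuc, 8.51, 8.59 and 8.58 with shApela #1, and 8.14, 7.95 and 8.16 with shApela #2. The groups were ordered without overlap, shApela #1 above shLuc and shLuc above shApela #2, and Nnat was the 1 member with an unadjusted p under 0.05 against shLuc with both hairpins. The change was 0.29 (SE 0.06, adjusted p = 0.146) with shApela #1 and -0.19 (SE 0.06, adjusted p = 0.68) with shApela #2. Between the hairpins the difference was -0.48 (95% interval from -0.62 to -0.33, adjusted p = 0.0158), and it lost its call without any 1 of the shApela #1 arrays (adjusted p = 0.0628, 0.0933 and 0.0551) and with only the compared arrays (0.0829). Blcap, the host gene, measured 7.91 ± 0.06, 7.91 ± 0.07 and 7.94 ± 0.00 in shLuc, shApela #1 and shApela #2, with adjusted p = 1 and 0.832 against shLuc.

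Ndn and Nnat are abundant in neurons, so markers of early neural cells are given beside them. Of 14 measured markers, 7 lay below the median probe set. With shApela #1, 10 were above their shLuc level (54.5% of all genes) and 0 passed the test. The mean level of the list ran from 7.13 to 7.17 on the shLuc arrays. It ran from 7.17 to 7.23 with shApela #1 and from 7.18 to 7.30 with shApela #2. Between the hairpins 11 of the 14 were higher with shApela #2 (57.8% of all genes), and Ndn and Nnat were lower. The smallest p with shApela #1 belonged to Zic2, a transcription factor of early neural tissue, at 10.69, 10.95 and 10.88 in shLuc, shApela #1 and shApela #2 (adjusted p = 0.136 for shApela #1 against shLuc). Next came Map2, a protein of neuronal microtubules, at 7.98, 8.41 and 7.96 (adjusted p = 0.197). Between the hairpins Map2 was lower with shApela #2, by -0.45 (SE 0.11, adjusted p = 0.115). The part of neural cells in the result was not tested.

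**Figure D2:**
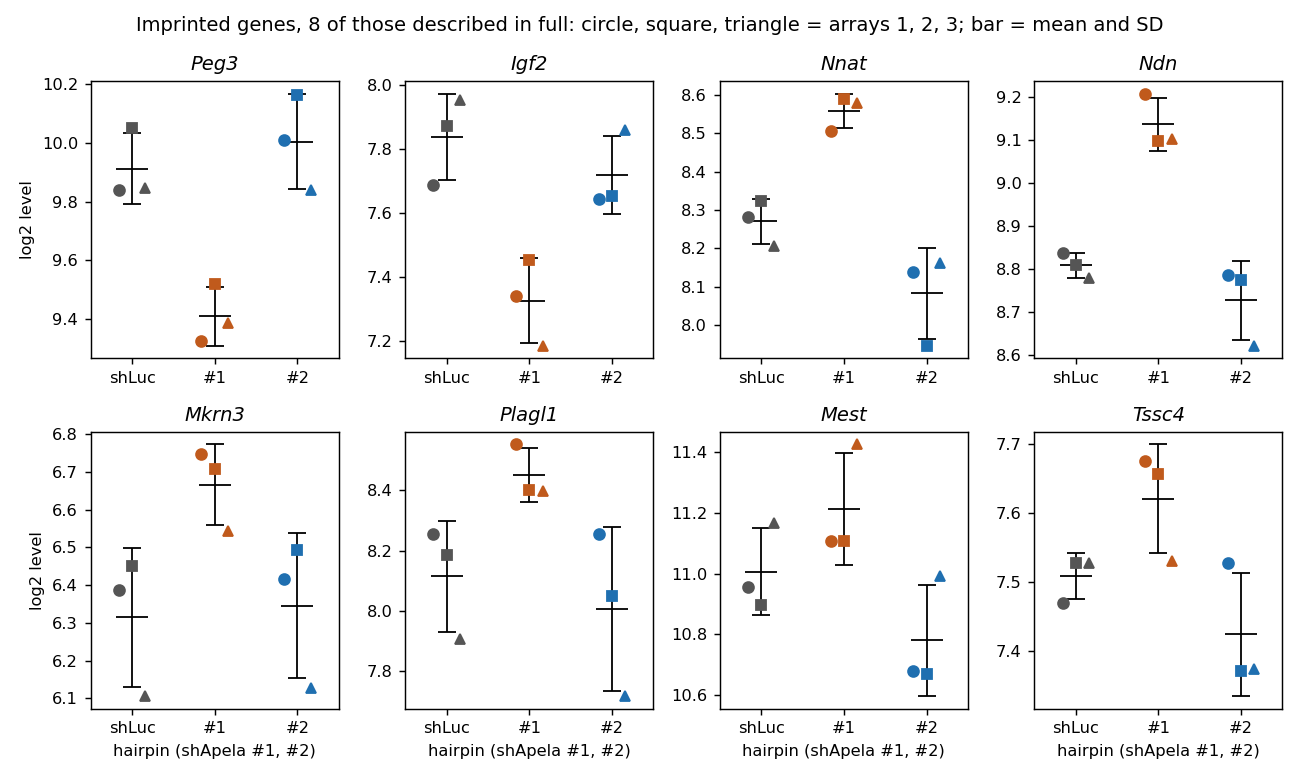
Log2 level of 8 imprinted genes by array, with the hairpin group on the horizontal axis; circles, squares and triangles are arrays 1, 2 and 3 of a group, and bars show the mean and SD of 3 arrays. Peg3 and Igf2 are lowest with shApela #1, and Nnat, Ndn, Mkrn3, Plagl1, Mest and Tssc4 have their highest group mean there.

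Igf2, the paternally expressed fetal growth factor, measured 7.69, 7.87 and 7.95 in shLuc, 7.34, 7.45 and 7.19 with shApela #1, and 7.64, 7.65 and 7.86 with shApela #2. Every shApela #1 array lay below every other array. Its change of -0.51 with shApela #1 was the largest of the 29 members against shLuc (SE 0.09, 95% interval from -0.72 to -0.30, adjusted p = 0.0771), and it did not pass, with the replicate block either (0.0606). With shApela #2 the change was -0.12 (SE 0.09, adjusted p = 0.695), and the hairpins differed by 0.39 (adjusted p = 0.115). Igf2r, the maternally expressed receptor that clears IGF2, measured 9.88, 10.04 and 9.88 in shLuc, 9.89, 9.90 and 9.83 with shApela #1, and 9.84, 9.88 and 9.61 with shApela #2. Its shApela #2 arrays lay just below those of shLuc (highest 9.8795 against lowest 9.8799), with a mean difference of -0.16 (SE 0.08, adjusted p = 0.68).

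Grb10, a maternally expressed adaptor that damps insulin and IGF1 receptors, had the widest spread of the members, with a pooled SD of 0.23 between arrays of a group. Its levels were 9.71, 9.71 and 10.10 in shLuc, 9.72, 9.70 and 10.15 with shApela #1, and 9.64, 9.46 and 9.87 with shApela #2, so the third array was the highest in each group. Its change with shApela #1 had an interval from -0.34 to 0.38. Of 16 measured genes of the insulin-like growth factor axis (ligands, receptors, binding proteins and IGF2 mRNA-binding proteins), 0 were called against shLuc with either hairpin (limma; 1 and 2 at an unadjusted p under 0.05). Between the hairpins 1 fell and 0 rose: Igf1r, the receptor through which IGF2 signals, measured 9.17 ± 0.09 in shLuc, 9.33 ± 0.06 with shApela #1 and 8.92 ± 0.11 with shApela #2, a difference of -0.41 (SE 0.07, adjusted p = 0.0345). Its call ended without any 1 of the 9 arrays but the third shApela #2 array (adjusted p up to 0.149) and with only the compared arrays (0.116). With the replicate block 1 gene of the axis rose and 2 fell between the hairpins, Igf1r, Igfbp3 and Igfbp4. Mir483, a microRNA within Igf2, measured 7.91 ± 0.06, 7.95 ± 0.14 and 8.17 ± 0.44 in shLuc, shApela #1 and shApela #2.

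Plagl1, a zinc finger transcription factor that has been placed upstream of other imprinted genes, measured 8.25, 8.18 and 7.91 in shLuc, 8.55, 8.40 and 8.40 with shApela #1, and 8.26, 8.05 and 7.72 with shApela #2. All 3 shApela #1 arrays were above the rest, by 0.34 against shLuc (SE 0.14, adjusted p = 0.591), and shApela #2 differed from shApela #1 by -0.44 (SE 0.14, adjusted p = 0.214, and 0.029 with the block). Mest, a hydrolase-like protein of embryonic mesoderm, measured 10.95, 10.90 and 11.17 in shLuc, 11.11, 11.11 and 11.43 with shApela #1, and 10.68, 10.67 and 10.99 with shApela #2. Within each replicate number the order was shApela #1, shLuc, shApela #2. Between the hairpins Mest differed by -0.43 (SE 0.12, adjusted p = 0.162, and 0.00566 with the block).

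The Dlk1-Meg3 cluster showed no called change. Meg3, a maternally expressed long non-coding RNA whose loss has been used to mark altered imprinting in stem cell lines, was bright, at 9.72, 9.87 and 9.65 in shLuc, 9.86, 9.90 and 9.59 with shApela #1, and 9.75, 9.75 and 9.65 with shApela #2. The groups overlapped, and the 95% intervals of its changes against shLuc ran from -0.16 to 0.24 and from -0.22 to 0.17. Rian, a maternally expressed host of small nucleolar RNAs, measured 7.46 ± 0.11, 7.37 ± 0.10 and 7.29 ± 0.15 in shLuc, shApela #1 and shApela #2. Its shApela #2 arrays lay just below shLuc (7.39, 7.12 and 7.37 against 7.39, 7.41 and 7.58), by -0.17 (SE 0.09, adjusted p = 0.68). Dlk1, the paternally expressed Notch-like ligand of the cluster, measured 7.87 ± 0.11, 7.87 ± 0.03 and 8.02 ± 0.22. Its value of 8.27 on the third shApela #2 array was above the other 8 arrays, which lay between 7.76 and 7.98.

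Between Dlk1 and Mirg, 44 further genes were measured, most of them microRNA hairpins, and 32 of the 44 lay below the median probe set. None was called in any of the 4 comparisons (0 of 44 by limma, with 1 and 7 at an unadjusted p under 0.05 for shApela #1 and shApela #2 against shLuc, and 0 between the hairpins). The median change of these 44 was -0.03 with shApela #1 and -0.01 with shApela #2. Such probe sets detect the hairpin or its precursor, and mature microRNAs were not measured.

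In the Kcnq1ot1 domain the measured members are maternally expressed, and none was called. Ascl2, a transcription factor of the placental precursor layer, measured 7.52, 7.85 and 7.83 in shLuc, 7.11, 7.44 and 7.65 with shApela #1, and 7.53, 7.77 and 7.62 with shApela #2. The difference of -0.33 with shApela #1 was the largest among maternally expressed genes (SE 0.14, adjusted p = 0.621), and the groups overlapped. Phlda2, a placental growth limiter, measured 11.44, 11.41 and 11.60 in shLuc, 11.19, 11.30 and 11.58 with shApela #1, and 11.23, 11.26 and 11.38 with shApela #2. Its shApela #2 arrays were all below shLuc, by -0.20 (SE 0.10, adjusted p = 0.68). Cdkn1c, the cell cycle inhibitor p57, measured 8.49 ± 0.12, 8.43 ± 0.18 and 8.49 ± 0.17.

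Tssc4 and the tetraspanin gene Cd81, at the edge of that domain, had their highest means with shApela #1, and neither was called. Tssc4 measured 7.47, 7.53 and 7.53 in shLuc, 7.68, 7.66 and 7.53 with shApela #1, and 7.53, 7.37 and 7.37 with shApela #2, and the hairpins differed by -0.20 (SE 0.06, adjusted p = 0.187). Cd81 measured 12.09, 12.06 and 12.08 in shLuc, 12.27, 12.16 and 12.15 with shApela #1, and 12.12, 12.06 and 12.13 with shApela #2. The shApela #1 arrays of Cd81 lay above the other 6, by 0.12 against shLuc (SE 0.04, adjusted p = 0.513). Of 5 further genes measured between the outer members of the domain, 0 were called in any comparison by limma, and 0 had an unadjusted p under 0.05 with either hairpin against shLuc or between the hairpins.

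Ascl2 and Phlda2 are also genes of the trophoblast. Of 16 measured trophectoderm markers 14 were lower with shApela #1 than in shLuc, with a median of -0.06, where 54.5% of all genes were higher. Of these 16, 4 had an unadjusted p under 0.05 (7.69% of all genes) and 0 passed the test. The smallest p belonged to Bmp8b, a bone morphogenetic protein, at -0.20 (SE 0.06, adjusted p = 0.262), and to the keratin gene Krt8 at -0.49 (SE 0.15, adjusted p = 0.335, and 0.0263 with the replicate block). With the block 2 of the 16 fell with shApela #1, Krt8 and Krt18. Between the hairpins the block gave 1 that rose, Krt8, and 1 that fell, Tead4, and 0 passed without it. There 14 of the 16 were higher with shApela #2 (57.8% of all genes). With shApela #2 against shLuc 8 were higher and 8 lower. The mean level of the list ran from 7.27 to 7.40 in shLuc, from 7.10 to 7.30 with shApela #1 and from 7.28 to 7.35 with shApela #2. Of the 16 markers 8 lay above the median probe set, among them Krt8 at 9.88 and Tead4 at 8.47 in shLuc, and 8 below it, among them the defining markers Cdx2, Elf5 and Gata3 at 5.87, 5.57 and 5.80. The part of trophoblast-like cells in the values of Ascl2 and Phlda2 was not tested.

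Peg10, a protein derived from a retrotransposon and needed for the placenta, measured 12.01, 12.03 and 12.15 in shLuc, 11.85, 11.87 and 11.97 with shApela #1, and 11.97, 11.94 and 12.13 with shApela #2. The shApela #1 arrays lay below shLuc, by -0.17 (SE 0.06, adjusted p = 0.519). Sgce, the epsilon-sarcoglycan gene that starts beside it, measured 8.59 ± 0.09, 8.60 ± 0.12 and 8.38 ± 0.29, and shApela #2 array 3 was the lowest, at 8.06. Asb4, maternally expressed and dim, measured 5.43, 5.47 and 5.46 in shLuc, 5.38, 5.38 and 5.38 with shApela #1, and 5.41, 5.43 and 5.52 with shApela #2. Its shApela #1 arrays lay below all others, with a difference of -0.07 against shLuc (SE 0.04, adjusted p = 0.841).

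None of the remaining members was called in any of the 4 comparisons. Impact, a regulator of the kinase GCN2, was the steadiest, with a pooled SD of 0.02 and levels of 10.94, 10.95 and 10.88 in shLuc, 10.90, 10.92 and 10.91 with shApela #1, and 10.93, 10.96 and 10.94 with shApela #2. Its shApela #2 arrays lay above the shApela #1 arrays by 0.03 (adjusted p = 0.643), a sign that turned with centred array medians (-0.0049). Slc38a4, an amino acid transporter, measured 11.85, 11.95 and 11.81 in shLuc, 11.89, 11.91 and 11.77 with shApela #1, and 11.85, 11.86 and 11.75 with shApela #2. Zdbf2, a zinc finger gene with a role in postnatal growth, measured 10.35, 10.35 and 10.46, then 10.26, 10.18 and 10.44, and 10.44, 10.25 and 10.35 in the same groups. The groups overlapped for both genes. Nap1l5, of the nucleosome assembly family, measured 6.30, 6.28 and 6.35 in shLuc, 6.36, 6.45 and 6.34 with shApela #1, and 6.34, 6.34 and 6.30 with shApela #2. Dcn, the matrix proteoglycan decorin, measured 5.59, 5.63 and 5.63, then 5.63, 5.67 and 5.63, and 5.58, 5.58 and 5.77. Both are dim, and their groups overlapped too. Dcn is also a fibroblast gene, and of 18 fibroblast markers 9 lay below the median probe set and 0 were called in any of the comparisons. With shApela #2 against shLuc 17 of the 18 were higher (57.5% of all genes), with a median of 0.04. With shApela #1, 7 were higher and 11 lower. The smallest p with shApela #1 belonged to Vim, the intermediate filament vimentin, at 0.27 (SE 0.07, adjusted p = 0.197), and to Acta2, a smooth muscle actin, at -0.67 (SE 0.27, adjusted p = 0.576). With the replicate block Acta2 passed there (adjusted p = 0.0443), and Vim passed between the hairpins, at -0.25 (SE 0.07, adjusted p = 0.144, and 0.0448 with the block). The part of such cells in the value of Dcn was not tested.

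**Figure D3:**
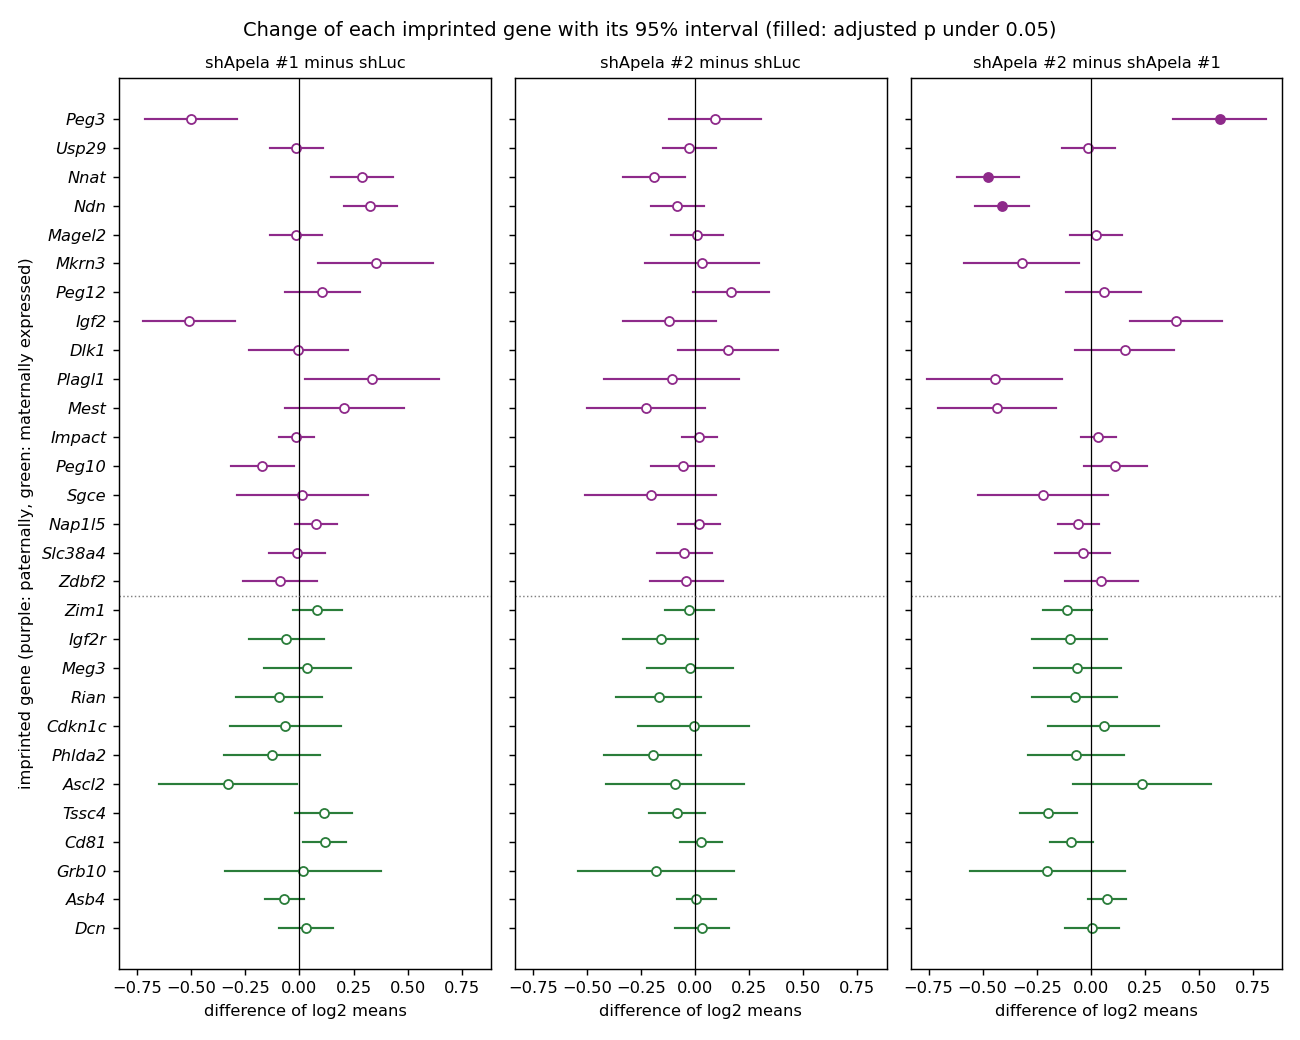
Difference of log2 means for each imprinted gene, with its 95% interval, for shApela #1 and shApela #2 against shLuc and for shApela #2 against shApela #1; filled points have an adjusted p under 0.05. Peg3, Nnat and Ndn in the right panel are the filled points, and the maternally expressed genes, below the dotted line, have none.

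Grouped by parental allele, the members were split nearly evenly with shApela #1, while with shApela #2 more of them were lower than higher. Of the 17 paternally expressed genes 8 were higher and 9 lower with shApela #1 (median -0.005, range from -0.51 to 0.35), and of the 12 maternally expressed genes 6 were higher and 6 lower (median -0.02, range from -0.33 to 0.12). Among all genes 54.5% were higher, with a median of 0.01. With shApela #2, 7 paternally expressed genes were higher and 10 lower (median -0.04), and 3 maternally expressed genes were higher and 9 lower (median -0.06), where 57.5% of all genes were higher with a median of 0.02. With array medians centred, those splits became 3 and 14, and 0 and 12, and the share of all genes that were higher turned to 37.7% with a median of -0.03. Between the hairpins the medians were -0.01 for paternally and -0.07 for maternally expressed genes, and 0.02 for all genes. All 3 calls were of paternally expressed genes, and the difference between the allele groups was not tested. Both comparisons with shLuc share the same control arrays.

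Changes were larger in size than those of a typical gene, in either direction. The median size of change against shLuc was 0.09 for the members and 0.04 for all genes with shApela #1, and 0.08 and 0.06 with shApela #2; between the hairpins it was 0.10 and 0.07. Their spread between arrays of a group was also larger, with a median pooled SD of 0.10 against 0.08.

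For some members, as for part of all genes, the spread followed the replicate number. In all 3 groups the third array was the highest for Grb10, Mest, Cdkn1c, Phlda2, Dlk1 and Peg10 (6 of 29, 20.7%, against 13.5% of all genes) and the lowest for Plagl1, Mkrn3, Sgce, Meg3 and Slc38a4 (5 of 29, 17.2%, against 11.1%). Grb10 was higher on the third array than on the mean of the others by 0.39 in shLuc, 0.44 with shApela #1 and 0.32 with shApela #2. Mest was higher by 0.24, 0.32 and 0.32. Mkrn3 was lower there, with differences of -0.31, -0.18 and -0.33. For Grb10 these gaps were larger than its changes with either hairpin, 0.02 and -0.18. No source used here says what the replicate number stands for.

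**Figure D4:**
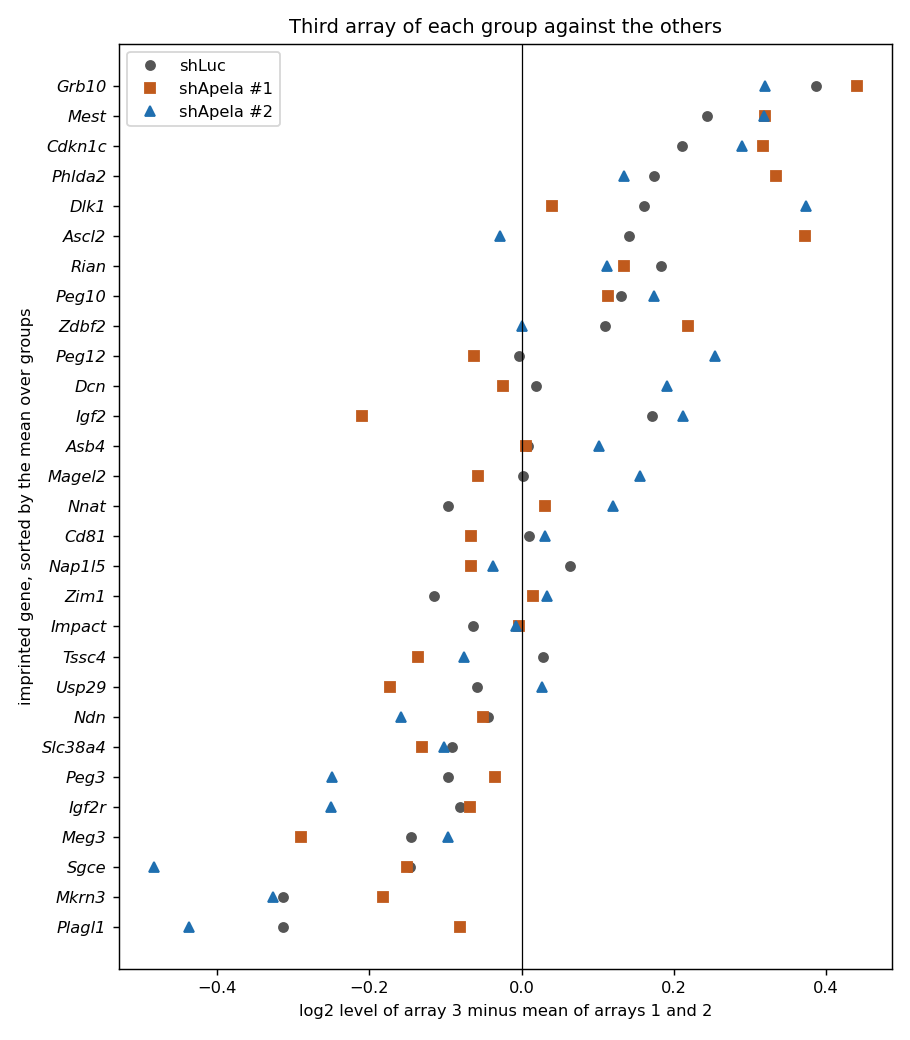
For each imprinted gene, the log2 level of the third array minus the mean of the first and second in the same group; symbols are the 3 groups. Grb10, Mest and Cdkn1c lie to the right of 0 in all groups, by 0.21 to 0.44, and Plagl1 and Mkrn3 lie to the left.

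Genes whose proteins keep imprints had levels above the median probe set, and none was called. All 18 genes of the maintenance list lay above the median probe set, with Zfp57 at 11.93 ± 0.10, Trim28 at 12.31 ± 0.09, Dnmt1 at 10.95 ± 0.07 and Uhrf1 at 10.38 ± 0.11 in shLuc. By limma 0 of the 18 passed in any comparison (2, 0 and 3 at an unadjusted p under 0.05 for shApela #1, for shApela #2 and between the hairpins). The smallest p with shApela #1 belonged to Dppa3, a factor that guards the maternal genome's methylation in the zygote, at -0.34 (SE 0.08, adjusted p = 0.189), and to the heterochromatin protein gene Cbx5 at -0.42 (SE 0.11, adjusted p = 0.239). Between the hairpins Cbx5 differed by 0.48 (SE 0.11, adjusted p = 0.106, and 0.0285 with the block). With shApela #2 they belonged to Smchd1, a chromatin protein of silenced genes, at -0.19 (SE 0.11, adjusted p = 0.68), and Cbx3 at -0.08 (SE 0.05, adjusted p = 0.68). Of 11 genes that set or erase methylation, such as Dnmt3a, Dnmt3b, Dnmt3l and the Tet enzymes, 0 passed in any comparison (1, 0 and 0 at an unadjusted p under 0.05; with the block Dnmt3l rose between the hairpins), and 9 were lower with shApela #1 and 8 with shApela #2. The smallest p with shApela #1 was that of Ctcfl, a germline relative of CTCF, at -0.09 (SE 0.04, adjusted p = 0.574), and the next that of Nsd1, a histone methyltransferase, at 0.13 (SE 0.06, adjusted p = 0.658).

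A further 42 imprinted genes outside the list of members, many of them imprinted in the placenta only, were measured as a background. Against shLuc 0 of these passed with either hairpin by limma (3 and 4 at an unadjusted p under 0.05), with medians of 0.01 and 0.02 and 22 higher and 20 lower each time. Between the hairpins 2 fell and 0 rose (0.948% of all genes were called in either direction). Gatm, an enzyme of creatine synthesis, measured 7.41 ± 0.07 in shLuc, 7.66 ± 0.08 with shApela #1 and 7.13 ± 0.05 with shApela #2, a difference of -0.53 between the hairpins (SE 0.05, adjusted p = 0.0079). Atp10a, a phospholipid flippase, measured 8.35 ± 0.08, 8.39 ± 0.01 and 8.09 ± 0.08, a difference of -0.31 (SE 0.05, adjusted p = 0.0434). Gatm kept its call under all 18 alternatives, while Atp10a lost it without any 1 of the 9 arrays (adjusted p from 0.0508 to 0.17). Gatm had the order of Nnat, above shLuc with shApela #1 and below it with shApela #2, while Atp10a had its lowest mean with shApela #2.

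Few markers of the state of the cells passed the test. Of the 18 pluripotency genes 0 were called against shLuc by limma (1 at an unadjusted p under 0.05 with each hairpin), and 1 rose between the hairpins. This was Lin28a, whose protein binds RNA and holds back the let-7 microRNAs, at 10.21 ± 0.08 in shLuc, 9.77 ± 0.07 with shApela #1 and 10.27 ± 0.14 with shApela #2 (difference of 0.50 between the hairpins, SE 0.08, adjusted p = 0.0266). Like Peg3 it was low on the 3 shApela #1 arrays, where it fell against shLuc with the replicate block (-0.44, SE 0.08, adjusted p = 0.064, and 0.0119 with the block). Its call between the hairpins ended without any 1 of 7 arrays, those kept being the third of shLuc and the third of shApela #2 (adjusted p up to 0.132). Of 17 endoderm and 12 mesoderm markers 0 were called in any comparison, with or without the block, and 3 and 1 had an unadjusted p under 0.05 with shApela #1. Of the endoderm markers the smallest p there belonged to Dab2, an endocytic adaptor of primitive endoderm, at -0.34 (SE 0.07, adjusted p = 0.117), and Cubn, the receptor cubilin, at -0.45 (SE 0.14, adjusted p = 0.349). Of the mesoderm markers it belonged to Eomes, a T-box factor, at -0.18 (SE 0.07, adjusted p = 0.538), and Foxf1, a forkhead factor, at -0.04 (SE 0.04, adjusted p = 1). The part of these markers in the values of the imprinted genes was not tested.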

How the data were processed

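Values in the deposited table are on a log2 scale, 1 for each probe set on each array. The authors used RMA in Partek 6.6, as listed in the submitters' processing notes. RMA corrects background, quantile-normalizes and combines the probes of a set into 1 value. Its settings were not stated, and the base of the logarithm was inferred from how large the values are. Scanner files were not used, and with 3 arrays a group precision is limited. Of 28853 probe sets, 21775 had 1 gene symbol in GEO's platform annotation, 1578 several and 5500 none; only the first kind was used. Each of the 29 members had 1 such probe set.

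All 9 arrays entered 1 fit in R 4.3.3 with limma 3.58.1 (lmFit, eBayes, two-sided, with 6 residual and 2.72 prior degrees of freedom). The code was first run on simulated arrays with independent noise and no replicate effect. Its error rates on the present arrays were not tested that way. Every measured member is named. Values are given by array for members that passed, had an unadjusted p under 0.05 or had groups without overlap, and otherwise for the member with the smallest p of its cluster. Of the other lists, genes that passed in a comparison were named, or the 2 with the smallest p with shApela #1 where none passed. A few more genes of these lists, and the lists of genes between members, were added after values were seen, as were the lists' counts with the replicate block. Members and lists were chosen with earlier results of these data known.

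Deviations of same-numbered arrays from their group means correlated by 0.44, 0.40 and 0.68 between shLuc and shApela #1, by 0.18, 0.21 and 0.21 between the hairpins, and by -0.01, 0.67 and 0.47 between shLuc and shApela #2. The number was taken to pair arrays, from the data alone, in the first 2 of these, where all 3 values were above 0. The values between the hairpins were low, and differently numbered arrays were not correlated for comparison, so this reading is uncertain. The block entered the fit as 1 factor over all 9 arrays, so it paired the shLuc and shApela #2 arrays too. Alternatives are given in the closing section.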

Additional observations from a re-analysis of the deposited data

Results flagged for a closer look

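The effects of the hairpins against shLuc differed in limma's direct test (adjusted p under 0.05) for 3 members. Peg3 differed by 0.59 between shApela #2 and shApela #1, Nnat by -0.48 and Ndn by -0.41, each with 3 arrays of a hairpin all on 1 side of the other 3. Nnat was on opposite sides of shLuc with the hairpins on all 6 arrays.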

How the results depend on the processing

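Of 36 single-gene changes recomputed under up to 18 alternatives, 35 kept their sign throughout; Impact between the hairpins was -0.0049 with centred array medians. Called members with shApela #1 against shLuc were 0 in the main analysis, 1 with dim genes left out, 2 after a second quantile normalization, 6 with array weights, 3 with the replicate block, and 0 to 2 leaving out single arrays (2 without the third shApela #2 array). Between the hairpins they were 3, and 7 with array weights, 6 with the replicate block, 0 with only the compared arrays, and 0 to 3 leaving out single arrays (0 without the first or second shApela #1 array, 1 without the third). With arrays numbered 1 and 2 alone, chosen after seeing the data, 2 and 5 were called. The block changed no call with shApela #2 against shLuc (0) or for the mean of both hairpins (0). Leaving out arrays, the median of all members ran from -0.0151 to 0.0322 with shApela #1, from -0.0537 to -0.0362 with shApela #2 and from -0.0574 to -0.0128 between the hairpins (-0.0671 with arrays 1 and 2 alone). The paternally expressed median ran from -0.0155 to 0.0431, from -0.0461 to -0.0106 and from -0.0696 to 0.018, and the maternally expressed median from -0.064 to -0.0028, from -0.0722 to -0.0391 and from -0.0893 to -0.0421. With centred array medians the medians of all, paternally and maternally expressed members were -0.0821, -0.0821 and -0.0959 with shApela #2 and -0.0958, -0.0504 and -0.1109 between the hairpins. With dim genes left out they were -0.0617 (maternal, shApela #1), -0.083 (all, shApela #2), -0.0937 (maternal, shApela #2) and 0.0335 (paternal, between the hairpins), and array weights gave -0.0476 for the last. The cause was not tested. RMA values carry no background level, so how far the 7 members below the median probe set lie above background is unknown. These are Usp29, Zim1, Magel2, Mkrn3, Asb4, Nap1l5 and Dcn.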
